A study of Mus musculus with 18 samples.

Results

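Type I interferon stimulated genes are described here through 9 genes chosen by symbol from the 23421 genes of the deposited RNA-seq table: Isg15, Usp18, Ifit1, Ifit2, Ifit3, Stat2, Irf9, Irf7 and Bst2. The study set embryoid bodies (EBs) and embryonic stem (ES) cells of the mouse that lack Eed, or ES cells depleted of Setd2, against their controls. Eed is a core subunit of Polycomb repressive complex 2, which methylates lysine 27 of histone H3, and Setd2 is the enzyme that trimethylates lysine 36 of histone H3. Of its 18 samples the 6 RNA-seq libraries are used here, and 12 ChIP-seq samples are not used here.

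Each of the 6 groups is 1 library, so there is no replicate error and no test for any comparison. The library labelled ES Eed KO came from Eed knock-out ES cells of the E36 line, and the ES wild type library from unmodified E36 cells. The library labelled EB Eed KO and the EB wild type library came from day 9 embryoid bodies. These were made by withdrawing LIF, growing cells in hanging drops for 48 h and adding 0.5 µM all-trans retinoic acid between days 2 and 5. The shSetd2 and shCtrl libraries came from E14 ES cells carrying a lentiviral short hairpin against Setd2 or a scrambled hairpin, selected with puromycin and harvested on day 4 after selection. All groups have the 129/Ola background, and ES cells were grown on gelatin with 15% serum and LIF. The labels do not give the Eed allele, the number of clones or how far EBs were pooled. Since embryoid bodies are mixtures, fewer cells of a type and less RNA per cell cannot be told apart in these bulk samples.

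Type I interferons bind a receptor made of Ifnar1 and Ifnar2, whose kinases Jak1 and Tyk2 phosphorylate Stat2. Phosphorylated Stat2 and Irf9 are parts of the factor ISGF3, which binds the interferon-stimulated response element (ISRE) in promoters and raises transcription of interferon stimulated genes. Pluripotent stem cells are known for a weak response to interferon compared with differentiated cells, while keeping some of these genes expressed without it. ISG15 is a ubiquitin-like protein that is joined to other proteins, and USP18 both removes it from them and dampens signalling at the interferon receptor. IFIT1, IFIT2 and IFIT3 are RNA-associated antiviral proteins, IRF7 is a factor that drives interferon genes, and BST2 (tetherin) holds budding virus at the cell surface.

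Promoter sequences are shown because the ISRE is the element through which ISGF3 acts on its targets. RefSeq promoter windows on GRCm38.p6, from 250 bases before to 50 bases after the transcription start, were found for 8 of the 9 genes, in 10 windows. They were searched on both strands for the ISRE core, GAAA and GAAA parted by 2 bases of any kind, which reads TTTC and TTTC with the same gap on the other strand. In the lines that follow, capitals mark every match to that core, and each sequence runs 5′ to 3′ on the strand of the gene. Isg15 is shown at chr4:156200835-156200936 on the minus strand, Ifit1 at chr19:34640745-34640853 and Ifit3 at chr19:34583333-34583456 on the plus strand, Stat2 at chr10:128270248-128270325 on the plus strand, and Bst2 at chr8:71537547-71537642 on the minus strand.
Isg15: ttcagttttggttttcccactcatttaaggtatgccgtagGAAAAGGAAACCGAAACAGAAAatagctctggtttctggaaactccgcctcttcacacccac
Ifit1: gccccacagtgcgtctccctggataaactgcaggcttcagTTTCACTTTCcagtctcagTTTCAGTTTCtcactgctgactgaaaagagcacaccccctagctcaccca
Ifit3: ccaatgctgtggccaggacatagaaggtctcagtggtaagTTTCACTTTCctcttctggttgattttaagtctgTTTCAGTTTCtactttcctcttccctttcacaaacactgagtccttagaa
Stat2: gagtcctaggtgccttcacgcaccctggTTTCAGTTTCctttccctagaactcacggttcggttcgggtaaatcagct
Bst2: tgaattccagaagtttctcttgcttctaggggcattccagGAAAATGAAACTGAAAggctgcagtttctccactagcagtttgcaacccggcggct

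The core matched in 5 of these 8 genes, which is 5 of their 10 windows, against 3.44% of all 32851 promoter windows of the same length. At least 2 matches stood within a single window for 4 genes, against 0.225% of all windows. Isg15 held 3 overlapping matches spaced 6 bases apart, the first starting 78 bases before the transcription start, so its capitals run together. The 2 matches of Bst2 also overlapped, whereas those of Ifit1 lay at -104 and -85 and those of Ifit3 at -156 and -122. Stat2 had 1 match, at -222. The letters of the core were not in the windows of Ifit2, Irf9 or Irf7, which says nothing of binding there. The gamma-activated sequence TTCNNNGAA, searched on both strands, matched in 8.30% of all windows and in those of Ifit2 and Bst2. In Bst2 it overlapped an ISRE match. A match is a run of letters and does not show a bound site.

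Levels are in FPKM, fragments assigned to a transcript, scaled by its length and by the library's total, so that genes can be set beside each other per length. A difference between libraries is that of log2(FPKM + 1). Calls go by size: a difference of 1 or more makes a gene higher, and -1 or less makes it lower. Genes that reached 1 FPKM in either library compared are termed expressed. From low values of olfactory receptor transcripts, 1 fragment on a transcript of 1 kb was worth 0.0424 FPKM in EB wild type to 0.0622 FPKM in the library labelled EB Eed KO, which was the shallowest. Values near these levels rest on very few fragments.

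The checks of the targeted genes came out differently for Eed and Setd2. Eed mRNA stood at 77.8 FPKM in the library labelled ES Eed KO, against 72.3 FPKM in ES wild type, and at 21.8 FPKM in the library labelled EB Eed KO and 25.0 FPKM in EB wild type, so transcript level does not check those labels. Setd2 was at 2.59 FPKM in shSetd2 cells and 16.8 FPKM in shCtrl cells. The library labelled EB Eed KO stood apart from the other 5 in the tumour suppressor Trp53 (0.157 FPKM, against 70.7 FPKM in EB wild type) and in the Y-linked gene Eif2s3y (0.0628 FPKM, against 25.7 FPKM in EB wild type). These genes were named after their values were seen. Every EB difference given here rests on that library. The 8 pluripotency markers summed to between 2914 and 4172 FPKM in the 4 ES libraries.

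Bst2 and Stat2 were well expressed everywhere, and the other 7 genes were low or uneven. Of the 9 genes, 7 reached 1 FPKM in the library labelled EB Eed KO, 3 in shSetd2 and 2 in shCtrl. The library labelled ES Eed KO, ES wild type and EB wild type had 5 each. The library labelled EB Eed KO was the highest of the 6 for Usp18, Ifit1, Ifit2, Ifit3 and Irf9, and ES wild type for Isg15 and Bst2. Ifit1 spanned 0.0230 FPKM in shCtrl, under the worth of 1 fragment on 1 kb there (0.0427 FPKM), to 4.25 FPKM in the library labelled EB Eed KO. Between highest and lowest library the ratio was 28.4 for Isg15, but 2.59 for Bst2 and 1.37 for Stat2. With 1 library per group, no neighbours in these orders can be separated beyond a spread.

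**Figure D1:**
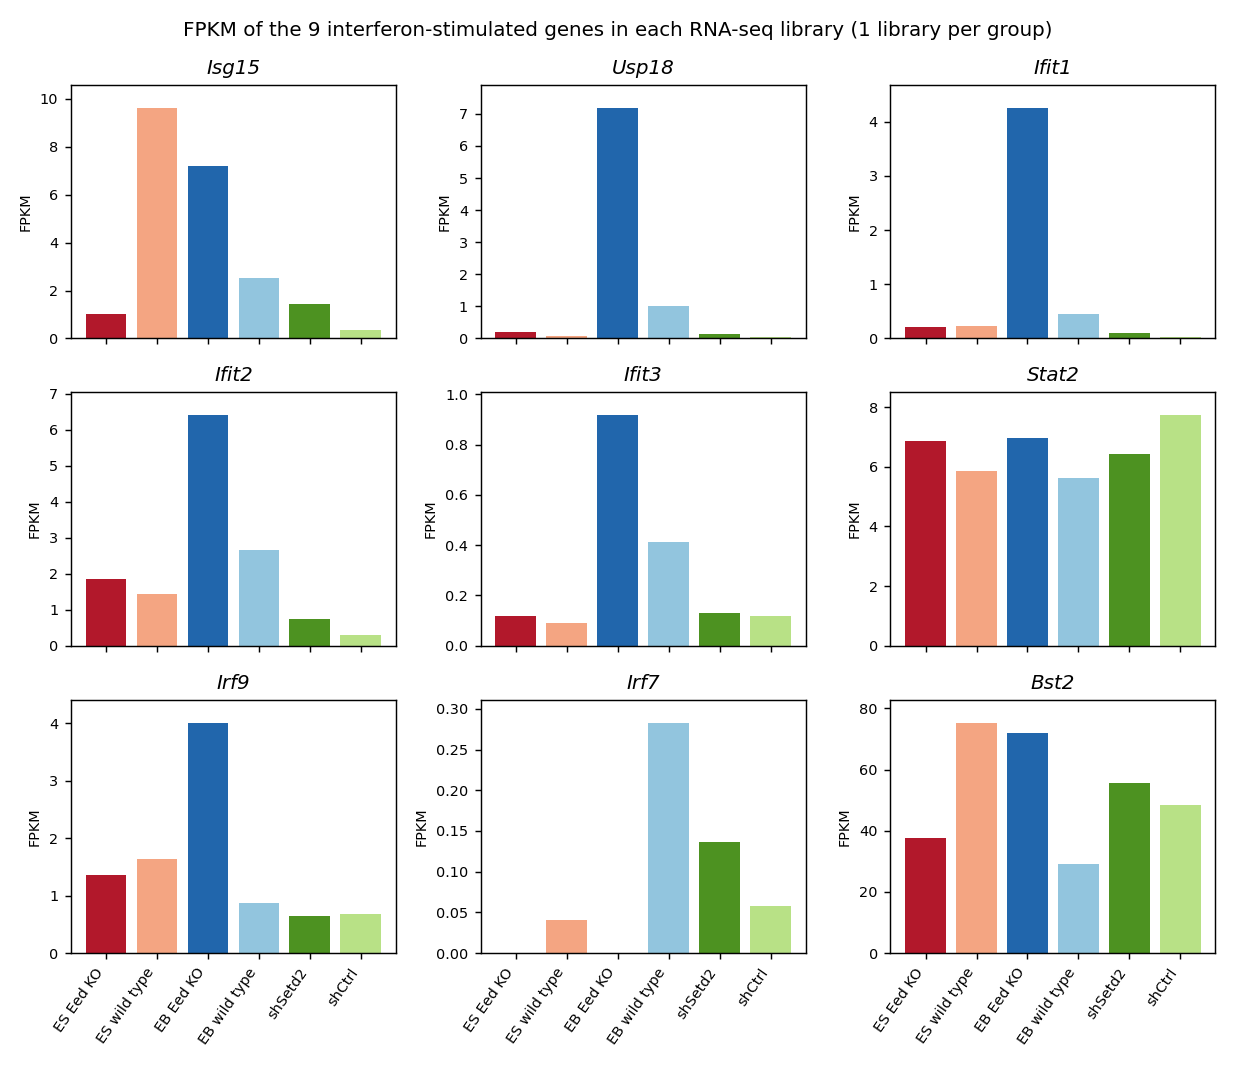
FPKM of each of the 9 genes in the 6 RNA-seq libraries, with 1 bar per library and a separate axis from 0 for each gene. The library labelled EB Eed KO has the highest bar for Usp18, Ifit1, Ifit2, Ifit3 and Irf9, and Stat2 is nearly level, between 5.62 and 7.73 FPKM. For Irf7 and Irf9 the bars show only the transcript with the highest mean.

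In day 9 embryoid bodies, 6 of the 9 genes were higher by size in the library labelled EB Eed KO than in EB wild type: Usp18, Ifit1, Irf9, Bst2, Isg15 and Ifit2. None was lower. The background over 13919 expressed genes was 8.15% higher and 10.4% lower. The median difference of the 9 genes was 1.21, against -0.16 over all expressed genes, and 8 of the 9 lay above 0, against 5526 of the 13919. Of the 9, 7 were expressed in these libraries, and Ifit3 and Irf7 were below 1 FPKM in both. Ifit1 (0.444 FPKM in EB wild type) and Irf9 (0.867 FPKM) counted as expressed only through the library labelled EB Eed KO, where they were higher. The split over all genes depended on scaling, with 1135 higher and 1450 lower as deposited, 1431 and 1107 after scaling to equal upper quartiles, and 1426 and 986 relative to the median of each gene's own chromosome. The same 6 genes were higher under these rescalings.

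Usp18 (NM_011909, chr6:121195924-121220935 on mm9), the ISG15 protease, had 7.18 FPKM in the library labelled EB Eed KO and 1.02 FPKM in EB wild type, 7.02-fold and a difference of 2.02. In ES cells it was nearly silent, at 0.212 FPKM in the library labelled ES Eed KO, 0.0792 FPKM in ES wild type, 0.131 FPKM in shSetd2 and 0.0480 FPKM in shCtrl. Both EB libraries thus lay above all 4 ES libraries for Usp18. The 414 genes of chromosome 6 with a mean of at least 5 FPKM had a median difference of 0.31 in EBs, against -0.19 over all chromosomes, and Usp18 was at 1.71 relative to its chromosome. In the ES comparison that chromosome's median was 0.47, against -0.06 over all, and Usp18 was at 0.17.

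Isg15 (NM_015783, chr4:155573533-155574927), the ubiquitin-like modifier itself, had 7.21 FPKM in the library labelled EB Eed KO and 2.54 FPKM in EB wild type, a difference of 1.21. Among ES libraries it had 1.03 FPKM in the library labelled ES Eed KO, 9.62 FPKM in ES wild type, 1.45 FPKM in shSetd2 and 0.339 FPKM in shCtrl. It was the only one of the 9 genes apart from Bst2 whose highest library was ES wild type. The enzymes that attach ISG15, a list of 4, had none called in EBs (median 0.65). Uba7, its activating enzyme, had 2.19 FPKM in the library labelled EB Eed KO and 0.817 FPKM in EB wild type, and Trim25, a ligase, differed by 0.86.

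The IFIT genes lie side by side on chromosome 19. Ifit1 (NM_008331, chr19:34715379-34724499 on mm9), which binds viral RNA lacking cap methylation, had 4.25 FPKM in the library labelled EB Eed KO and 0.444 FPKM in EB wild type, 9.58-fold and a difference of 1.86. All 4 ES libraries held less than either EB library, with 0.220 FPKM in the library labelled ES Eed KO, 0.234 FPKM in ES wild type, 0.107 FPKM in shSetd2 and 0.0230 FPKM in shCtrl. Ifit2 (NM_008332, chr19:34625184-34651024) had 6.40 FPKM in the library labelled EB Eed KO and 2.67 FPKM in EB wild type, a difference of 1.01 that only just reached the size for a call. It was the IFIT gene with the highest level in every library, with 1.85 FPKM in the library labelled ES Eed KO, 1.45 FPKM in ES wild type, 0.736 FPKM in shSetd2 and 0.309 FPKM in shCtrl. The EB libraries were again above the ES libraries.

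Ifit3 (NM_010501, chr19:34658019-34663472) had 0.917 FPKM in the library labelled EB Eed KO and 0.412 FPKM in EB wild type, a difference of 0.44 that was not called. The 4 ES libraries lay between 0.0903 FPKM in ES wild type and 0.131 FPKM in shSetd2. Ifit3b, a nearly identical neighbour, had 0.626 FPKM in the library labelled EB Eed KO and 0.317 FPKM in EB wild type. Reads may have been divided between Ifit3 and Ifit3b, so the level of each is uncertain.

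Of the ISGF3 components among the 9, Irf9 was called and Stat2 was not. Irf9 (NM_001159418, chr14:56222822-56228867), the DNA-binding subunit, had 4.01 FPKM in the library labelled EB Eed KO and 0.867 FPKM in EB wild type, a difference of 1.42. The call rests on the division of reads among its 3 transcripts: summed, Irf9 had 7.64 FPKM in the library labelled EB Eed KO and 3.37 FPKM in EB wild type, and a difference of 0.98 that stayed just short of a call. The ES libraries held 1.35 FPKM in the library labelled ES Eed KO, 1.63 FPKM in ES wild type, 0.645 FPKM in shSetd2 and 0.684 FPKM in shCtrl for the same transcript. Its level was thus lower in both E14 libraries than in the 4 E36 libraries.

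Stat2 (NM_019963, chr10:127707632-127729905), which brings the activation domain to ISGF3, had 6.97 FPKM in the library labelled EB Eed KO and 5.62 FPKM in EB wild type, a difference of 0.27. Its levels in the other libraries were 6.86 FPKM in the library labelled ES Eed KO, 5.87 FPKM in ES wild type, 6.42 FPKM in shSetd2 and 7.73 FPKM in shCtrl, and no comparison called it. Irf7 (chr7:148449082-148452323) stayed under 1 FPKM throughout: summed over its 3 transcripts it had 0.429 FPKM in the library labelled EB Eed KO and 0.283 FPKM in EB wild type, and 0.0420 to 0.257 FPKM in the ES libraries. Its transcript with the highest mean (NM_001252601) was listed at 0 for the library labelled ES Eed KO and for that labelled EB Eed KO, so the transcript differences of Irf7 depend on which isoform received the reads.

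Bst2 (NM_198095, chr8:74058161-74061336), the most abundant of the 9 in every library, had 72.1 FPKM in the library labelled EB Eed KO and 29.1 FPKM in EB wild type, 2.48-fold and a difference of 1.28. Among ES cells it had 37.6 FPKM in the library labelled ES Eed KO, 75.4 FPKM in ES wild type, 55.7 FPKM in shSetd2 and 48.3 FPKM in shCtrl. The library labelled EB Eed KO and ES wild type were therefore close to each other at the top, and EB wild type was the lowest.

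**Figure D2:**
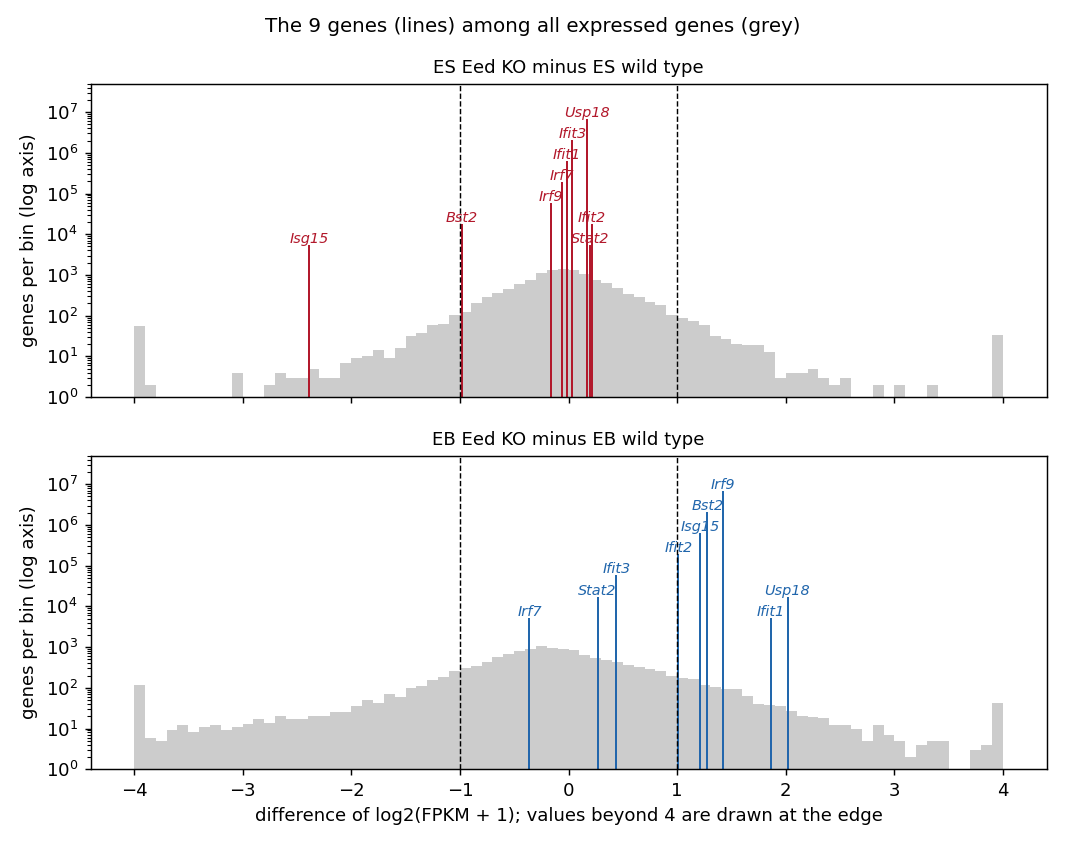
Difference of log2(FPKM + 1) between Eed KO and wild type libraries in ES cells (upper panel) and EBs (lower panel), with all expressed genes as grey bars counted on a log axis and the 9 genes as labelled lines, whose height has no meaning and which include genes under 1 FPKM. In EBs 6 of the lines lie at or beyond 1, and in ES cells Isg15 lies at -2.39 while the other genes lie between -0.98 and 0.22.

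Other genes of the pathway moved less uniformly in EBs. Of 49 further antiviral interferon stimulated genes measured, 29 were expressed in the EB libraries. By size 6 were higher and none lower, beside 8.15% and 10.4% of all 13919 expressed genes. The median was 0.08 over all 49, genes under 1 FPKM included. The 6 included Mov10, an RNA helicase (24.4 FPKM in the library labelled EB Eed KO, 5.53 FPKM in EB wild type). Ifi27, a mitochondrial protein, was another (6.67 FPKM in the library labelled EB Eed KO, 1.18 FPKM in EB wild type). Parp12 and Ifi27l2a were also higher, by 1.32 and 1.36. The 21 interferon ligand genes stayed near or at 0: no ligand reached 1 FPKM in any library, the highest value was 0.208 FPKM (Ifnz, in the library labelled EB Eed KO), and Ifnb1 was listed at 0 throughout.

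Of 10 receptor and kinase genes, Ifnlr1, the receptor chain specific to type III interferon, was called higher in EBs, with 4.33 FPKM in the library labelled EB Eed KO and 0.421 FPKM in EB wild type. The type I receptor was present in both, with Ifnar1 at 13.5 FPKM in the library labelled EB Eed KO and 16.1 FPKM in EB wild type, and Ifnar2 at 14.2 and 10.2 FPKM in the same order. Tyk2 and Jak1 differed by 0.69 and 0.66 and were not called. Among 20 sensors and adaptors, the factor Irf5 was higher (10.9 FPKM in the library labelled EB Eed KO, 2.73 FPKM in EB wild type) and none was lower, and none of 10 negative regulators was called. Socs1, an inhibitor of JAK kinases, differed by 0.67.

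Marker genes of several cell types differed between the EB libraries as well. The summed level of 6 neuronal markers was 1.72 FPKM in the library labelled EB Eed KO and 449.9 FPKM in EB wild type. That of 7 fibroblast and mesenchyme markers was 1733 FPKM in the library labelled EB Eed KO and 755 FPKM in EB wild type, and 7 extraembryonic endoderm markers summed to 181 and 80.3 FPKM in the same order. Of the endoderm markers 2 were called higher, and Sox17 (-0.36) and Afp (-0.05) lay below 0. Pluripotency markers, a list of 8, summed to 31.0 FPKM in the library labelled EB Eed KO and 233 FPKM in EB wild type. Dppa5a alone had 118 FPKM in EB wild type. Of the 8 markers 6 were called lower, and Klf4 (0.35) and Utf1 (0.04) lay above 0. The part of these shifts in the levels of the 9 genes was not tested. Macrophage and blood markers, of which 12 were measured, summed to 2.00 FPKM in the library labelled EB Eed KO and 1.30 FPKM in EB wild type, and none exceeded 0.730 FPKM there. Of these markers, Lyz2 differed most, with 0.718 FPKM in the library labelled EB Eed KO and 0.116 FPKM in EB wild type, followed by Cd14 with 0.730 FPKM in the library labelled EB Eed KO and 0.467 FPKM in EB wild type. Among those that define blood cells and macrophages, Adgre1 was listed at 0 in both EB libraries and Ptprc was at 0.00776 FPKM in the library labelled EB Eed KO and 0.0106 FPKM in EB wild type.

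**Figure D3:**
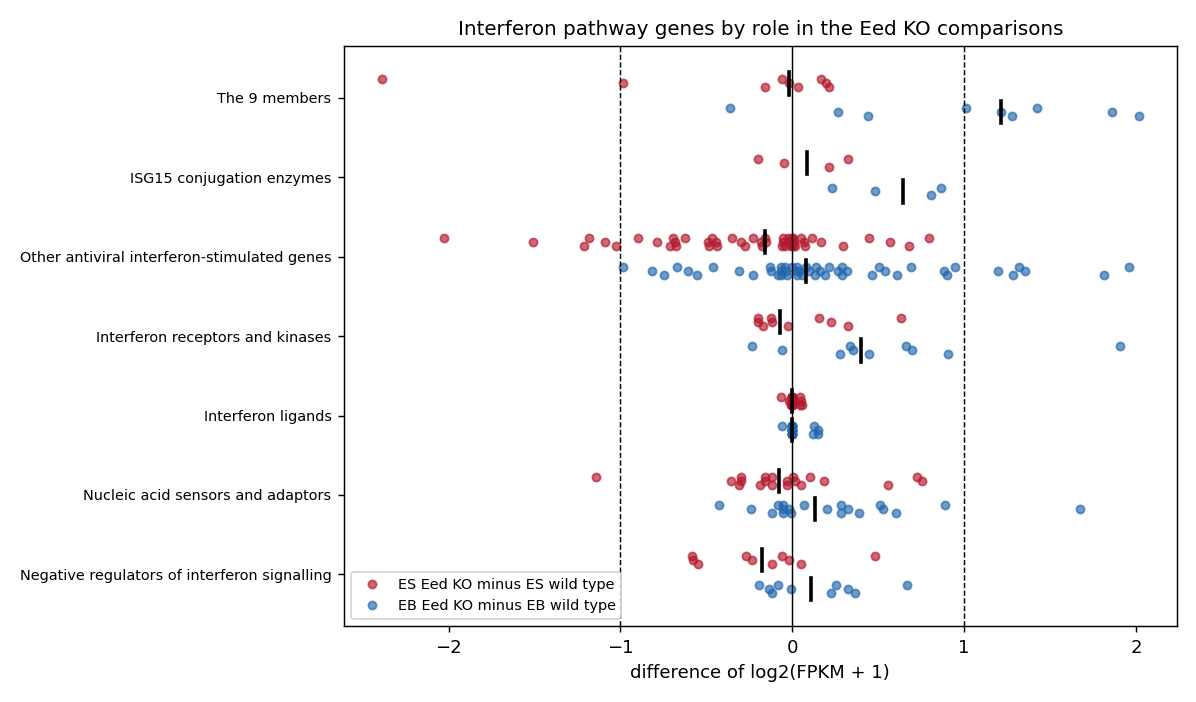
Difference of log2(FPKM + 1) for every measured gene of the 9 and of the other interferon pathway lists, with points for genes and a bar for the median of each list, in the Eed comparison in ES cells and in EBs. In EBs the median of the 9 genes is 1.21 and that of the 49 other antiviral genes 0.08, and in ES cells these medians are -0.02 and -0.16.

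In ES cells, 1 of the 9 genes was called in the library labelled ES Eed KO against ES wild type: Isg15 was lower, 1.03 FPKM against 9.62 FPKM, a difference of -2.39. Across 12862 expressed genes 3.46% were lower and 3.24% higher. The median of the 9 was -0.02 and that of all expressed genes -0.05. Bst2 was just short of a call, with 37.6 FPKM in the library labelled ES Eed KO, 75.4 FPKM in ES wild type and a difference of -0.98. The other 7 genes lay between -0.16 (Irf9) and 0.22 (Ifit2), 4 of them under 1 FPKM in both libraries. The 417 higher and 445 lower genes became 508 and 326 after scaling to equal totals, and Isg15 stayed called.

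Among the other antiviral genes in ES cells, of which 29 of 49 were expressed, none was higher and 6 were lower. The median over all 49 was -0.16. Psmb8, an immunoproteasome subunit, had 1.38 FPKM in the library labelled ES Eed KO, against 8.70 FPKM in ES wild type. Ifitm3, which blocks virus entry, had 48.3 FPKM in the library labelled ES Eed KO, against 139 FPKM in ES wild type. Ifi35 and Oas1b, which belongs to the oligoadenylate synthetase family, were lower by 1.21 and 1.18. Irf1, a transcription factor of the interferon response, was the 1 sensor list gene called, with 17.7 FPKM in the library labelled ES Eed KO, against 40.4 FPKM in ES wild type. No receptor, kinase, ligand, conjugation enzyme or negative regulator was called. The 8 pluripotency markers summed to 4172 FPKM in the library labelled ES Eed KO, against 2914 FPKM in ES wild type. Dppa5a alone had 2423 FPKM in the library labelled ES Eed KO, against 1315 FPKM in ES wild type, a difference of 0.88 without a call. Of the 8 markers 2 were called higher, Esrrb (1.21) and Klf4 (1.05), and none lower. Pou5f1 (-0.12) and Utf1 (-0.09) lay below 0. Extraembryonic endoderm markers, led by Col4a1, summed to 56.0 FPKM in the library labelled ES Eed KO, against 20.4 FPKM in ES wild type. Macrophage and blood markers summed to 3.39 and 1.66 FPKM in the same order. Of these, only Itgam was called, as higher (1.47 and 1.68e-05 FPKM). Lower sums were those of fibroblast and mesenchyme markers (6.37 and 28.5 FPKM, 2 called lower), neuronal markers (90.2 and 109 FPKM) and endothelial markers (11.4 and 14.2 FPKM). The 1 neuronal marker called was Ina, as lower (14.8 and 39.4 FPKM). Tubb3, the most abundant of that list, lay above 0 (70.2 and 62.4 FPKM). Likewise, Tek was the 1 endothelial marker called lower (0.688 and 3.73 FPKM). The most abundant there, Pecam1, lay above 0 (9.68 and 8.91 FPKM). In shCtrl the fibroblast and mesenchyme markers summed to 7.61 FPKM. The part of these markers in the differences of the 9 genes was not tested.

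How far these ES values depend on the control can be read from the E14 line. Between control ES cells, shCtrl against ES wild type, Isg15 was the 1 gene of the 9 called: 0.339 FPKM in shCtrl and 9.62 FPKM in ES wild type, a difference of -2.99. Over 12747 expressed genes 5.65% were lower and 3.14% higher (720 and 400, or 536 and 508 after scaling to equal upper quartiles). Ifit2 (-0.90), Irf9 (-0.64) and Bst2 (-0.63) were not called, and the median of the 9 was -0.27, against -0.10 over all expressed genes. Relative to the medians of their own chromosomes, Irf9 was at -0.35 and Bst2 at -0.21. Of the 49 other antiviral genes, 29 of them expressed, 10 were lower and 1 was higher. Irf1 was lower (7.58 FPKM in shCtrl, 40.4 FPKM in ES wild type). The comparison shares the ES wild type library with the Eed comparison in ES cells. With shCtrl in place of ES wild type as the control, Isg15 in the library labelled ES Eed KO differed by 0.60, in the other direction and without a call. The lines also differ in hairpin and selection, which cannot be told apart from the line.

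**Figure D4:**
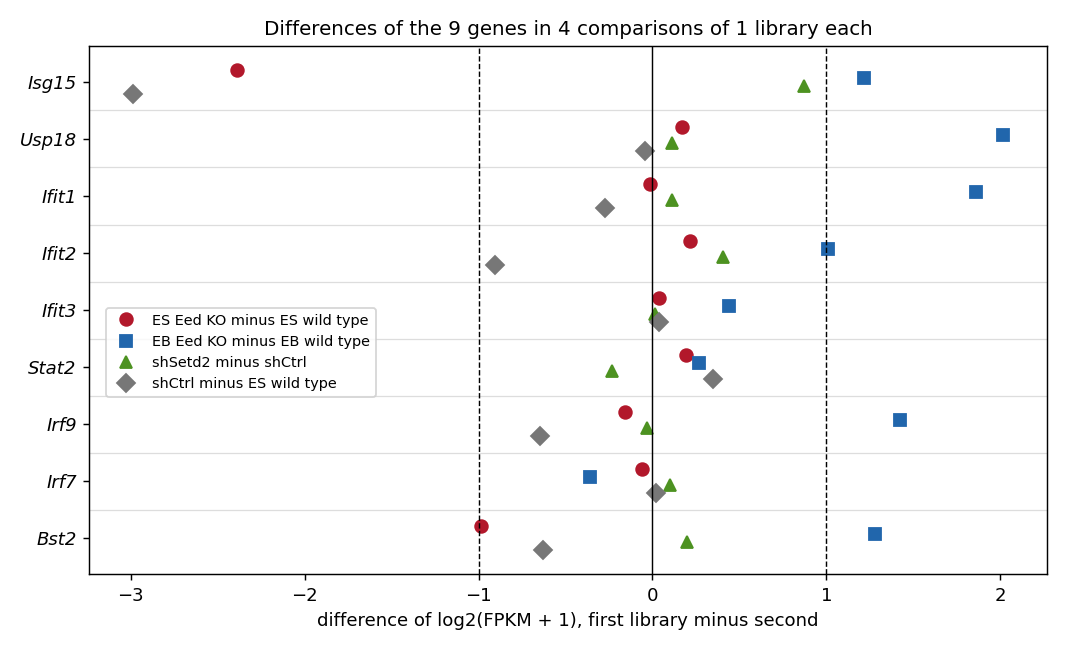
Difference of log2(FPKM + 1) for each of the 9 genes in 4 comparisons of 1 library each, with dashed lines at the size of 1 used for calls. Isg15 lies at -2.39 for Eed in ES cells and at -2.99 between the control ES cells, while Usp18, Ifit1, Irf9, Bst2, Isg15 and Ifit2 lie at or above 1 only for Eed in EBs among the comparisons drawn.

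The Eed differences in EBs and ES cells were set against each other by subtraction, which was not tested. The difference in EBs exceeded that in ES cells by at least 1 for Isg15 (3.60), Bst2 (2.26), Ifit1 (1.88), Usp18 (1.85) and Irf9 (1.59), and for none of the 9 was it lower by 1. Across 14772 genes, 9.13% were higher and 10.1% lower by this measure. The median of the 9 was 1.59, against -0.11 over all genes expressed in these libraries. For Isg15 and Bst2 the ES libraries contributed to the value, at -2.39 and -0.98. The Isg15 value rests on the ES wild type library: with shCtrl as the ES control its ES difference was 0.60, beside 1.21 in EBs, a gap under the size for a call. For Usp18 and Ifit1 the ES differences were 0.17 and -0.02, with both genes at 0.234 FPKM or less in the ES libraries.

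Differentiation alone, EB wild type against ES wild type, called no gene of the 9 higher and 2 lower. Isg15 had 2.54 FPKM in EB wild type and 9.62 FPKM in ES wild type, and Bst2 had 29.1 FPKM in EB wild type and 75.4 FPKM in ES wild type, differences of -1.59 and -1.34. Usp18 was the nearest to a call upward, at 0.91. Between these libraries 20.3% of 14047 expressed genes were higher and 14.9% lower (2855 and 2100, or 3606 and 1439 with equal totals). Of the 9 genes, 6 were expressed in these libraries. The medians were 0.23 for the 9 genes and 0.03 for all.

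In the libraries labelled Eed KO, EBs against ES cells, 5 of the 9 were higher and none was lower. Usp18 (2.75), Ifit1 (2.11), Isg15 (2.02), Ifit2 (1.38) and Irf9 (1.09) were called, and Bst2 was at 0.92. Of 13999 expressed genes 20.8% were higher and 19.6% lower (2913 and 2738, or 3645 and 2062 with equal totals). The median of the 9 genes was 1.09, against -0.05 for all expressed genes. With equal totals Bst2 also passed, at 1.19. Both differentiation comparisons reuse libraries of the Eed comparisons, so the values are given side by side only. Isg15 and Bst2 pointed opposite ways in them: lower in EB than in ES for wild type, and above 0 for the libraries labelled Eed KO.

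Setd2 depletion called none of the 9 genes. Isg15 came nearest, with 1.45 FPKM in shSetd2 and 0.339 FPKM in shCtrl, a difference of 0.87, followed by Ifit2 at 0.41. Across 12317 expressed genes 0.706% were higher and 1.70% lower (87 and 210, or 136 and 168 with equal upper quartiles). Of the 9 genes, 7 were above 0, most of them under 1 FPKM in both libraries, against 3605 of the 12317 expressed genes. The medians were 0.11 and -0.13, and with no filter on low values that of all genes was -0.007. Only 3 of the 9 were expressed in these libraries, and Ifit1, Usp18, Irf7 and Ifit3 were at 0.137 FPKM or less in both. The FPKM ratio of Isg15, shSetd2 over shCtrl, was 4.27, and pseudocounts under 1 called it, at 1.21 with 0.5 and 1.82 with 0.1.

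Among the other antiviral genes, of which 25 of 49 were expressed, 4 were higher in shSetd2 than in shCtrl and none was lower. They were Psmb8 (5.67 FPKM in shSetd2, 0.624 FPKM in shCtrl), Oasl2 (1.99 FPKM in shSetd2, 0.222 FPKM in shCtrl), Nmi and Trafd1, of which all but Psmb8 were named after their values were seen. Irf1 was also higher, with 20.8 FPKM in shSetd2 and 7.58 FPKM in shCtrl. For Psmb8 and Irf1, as for Isg15, the shCtrl value thus stood below those of ES wild type and shSetd2.

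The genes with the profile most like that of the 9 were found by Pearson's r with a median profile over the 6 libraries. For that profile each of the 9 genes' log2(FPKM + 1) was first centred on the gene's own mean, and the median was then taken per library. Among 7683 genes with at least 5 FPKM in some library and a range of at least 1, these were Ece1, an endothelin-converting enzyme (r = 0.997), Gmds (0.996), Dusp7 (0.995), Ssh3 (0.995), Golga5 (0.995) and Pdia5 (0.994). All 6 were highest in the library labelled EB Eed KO: Ece1 had 36.4 FPKM there and 12.2 FPKM in EB wild type. Since 1 library sets most of such a profile and many genes are high in it, r over 6 points that share that library is only a description. Of the 9 genes, Ifit1 (0.988) and Usp18 (0.971) followed the median profile most closely, while Isg15 (0.637), Bst2 (0.345), Stat2 (0.0217) and Irf7 (-0.291) did so less, each being part of that median.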

How the data were processed

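The deposited table gives FPKM for 29851 RefSeq transcripts in 6 RNA-seq libraries. The authors made these FPKM values with TopHat and Cuffdiff on mm9, per the submitters' processing notes, with versions, options and scaling not given in the sources used here. Libraries were made with the TruSeq RNA v2 kit per the labels' protocols, which does not mark strand, so antisense reads cannot be told apart. Sequencing totals are not in the table. ChIP-seq samples (12) were left out.

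Accessions were matched to symbols for 29300 transcripts through a RefSeq table (GRCm38.p6, names only), and the transcript with the highest mean stood for each of 23421 symbols. Differences of log2(FPKM + 1) were computed with Python 3.11.15, pandas 2.3.3 and numpy 2.4.6, adding 1 to each FPKM (the pseudocount), so folds of low genes come out too small. Calls were made by size (at least 1), and no p-value is given, since every group has 1 library. Loci are mm9, counted from 1. Promoter sequences are RefSeq's on GRCm38.p6. Functions were tested on simulated data.

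The 9 genes, the lists (124 genes in 10 lists) and the comparisons were chosen with earlier results of these data known. Named genes are the 9, up to 4 genes per list with the largest Eed difference in ES cells and in EBs among those of at least 1 FPKM, the 6 genes with the most similar profile, Eed and Setd2. Trp53, Eif2s3y, Ifit3b, Ifnar1, Ifnar2, Ifnz, Ifnb1, Oasl2, Nmi, Trafd1 and the single marker genes were named after their values were seen. Alternatives were other pseudocounts, filters and scalings, summed transcripts, shCtrl as the control, and centring on the gene's chromosome, which was added after seeing the data.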

Additional observations from a re-analysis of the deposited data

Results flagged for a closer look

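For 4 of the 9 genes the Eed KO minus wild type difference of log2(FPKM + 1) had opposite signs in EBs and in ES cells, with 1 library per group. Isg15 was at 1.21 in EBs and -2.39 in ES cells, which differ by 3.60. Bst2 was at 1.28 in EBs and -0.98 in ES cells, which differ by 2.26. For Ifit1 the values were 1.86 in EBs and -0.02 in ES cells, a gap of 1.88, and for Irf9 they were 1.42 in EBs and -0.16 in ES cells, a gap of 1.59. None of these differences was tested, and the ES values of Ifit1 and Irf9 lay close to 0. How many of all expressed genes had opposite signs was not counted, so the 4 of 9 has no background to be read against. The ES sign of Ifit1 rests on 0.220 FPKM for the Eed KO label, against 0.234 FPKM in ES wild type. That gap is under the worth of 1 fragment on 1 kb, 0.0437 FPKM for the Eed KO label and 0.0505 FPKM for ES wild type. For Isg15, Irf9 and Ifit1 the signs depend on the ES control. With shCtrl in place of ES wild type, the ES difference was 0.60 for Isg15 and 0.48 for Irf9, no longer opposite to EBs, and -0.35 for Bst2. Ifit1 had 0.220 FPKM in the library labelled ES Eed KO, against 0.0230 FPKM in shCtrl, so its sign also turned positive. Both values are low, and of the 4 genes only Bst2 kept opposite signs.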

How the results depend on the processing

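No paired analysis was possible because each group holds 1 library, and no library could be left out. The count of the 9 genes higher in EBs (6) stayed between 4 and 6 in all 9 alternatives run, with 5 when transcripts were summed (Irf9 at 0.98) and 4 at a minimum of 5 FPKM. Over all genes 1114 of 14022 were higher with summed transcripts and 791 of 10175 at 5 FPKM, against 1135 of 13919. The size of a fold in low genes depends on the pseudocount. In ES cells the count of lower genes was 2 at a pseudocount of 0.1 in place of 1 gene, with Bst2 added. Over all 12862 expressed genes that count was 764, against 445 at a pseudocount of 1. With shCtrl as the control 0 genes were lower and 1 was higher (Ifit2 at 1.12). Over all 12805 genes expressed in those libraries 494 were lower and 701 higher, against 445 and 417 with ES wild type. Isg15 was at 0.60 with shCtrl in place of -2.39, and the cause was not tested. For shSetd2 1 gene, Isg15, was higher at pseudocounts of 0.1 and 0.5 and relative to its chromosome's median (1.02), an alternative chosen after seeing the data. Over all 12317 genes 204, 132 and 121 were higher under these settings in that order, against 87. Under the same 3 settings 1 gene, Usp18, was higher in EB wild type than in ES wild type (2.65, 1.40 and 1.01 with 0.1, with 0.5 and relative to its chromosome). Over all 14047 genes 3522, 3240 and 3349 were then higher, against 2855. Against ES wild type, shCtrl had 3 genes lower at a pseudocount of 0.1 and 2 at 0.5, while the count over all 12747 genes was 1223 and 990, against 720 at a pseudocount of 1. At a minimum of 5 FPKM, 3 genes were higher in the library labelled EB Eed KO than in that labelled ES Eed KO, against 5 as reported. With equal totals and relative to the chromosome's median that count was 6, with Bst2 added. Over all expressed genes it was 2064 of 10130 at 5 FPKM and 3645 of 14167 with equal totals. Relative to the chromosome's median it was 3729 of 13999, against 2913 of 13999 as reported. In the subtraction of the Eed differences 3 were called at 5 FPKM, against 5. Over all genes 982 of 11066 were higher by that measure at 5 FPKM, against 1349 of 14772. Of the values of single genes, 334 kept direction and side, 13 newly passed, 1 no longer passed and 1 reversed.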
